A study of Rattus norvegicus with 2 samples.

Results

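The antioxidant and glutathione defence genes are a set of 40 genes for the enzymes and carriers that remove reactive oxygen species, together with the regulators that set their levels. The members were taken by gene symbol through the RefSeq accession of each array probe, and not by any measured value. The list of symbols was drawn up with earlier results of these data known. A probe was found for 39 of the 40 genes, giving 45 of the 41009 probes analysed on the array. No probe carried the accession of Gsta4. The gene listed as Mt1a was found under its current symbol, Mt1. The blood RNA of 6 male rats given lavender oil (LO) at 5 mg/kg in 10% ethanol was compared with that of 6 male rats given the diluent, 10% ethanol, at an LO dose of 0 mg/kg. The rats were 7 weeks old, and both groups were dosed into the stomach once a day for 13 days and sampled on day 14. The strain is F334 (Fischer) in the methods and Wistar in 1 field of the labels, and the labels add the portal vein to the heart as a source of blood. Each group entered the arrays as 1 RNA pool made from its 6 rats. Both pools were hybridised to 2 arrays, where array 1 carried LO in Cy5 with control in Cy3 and array 2 the reverse. This dye swap of the same RNA counts as 1 replicate. No spread between rats was measured, no test between the groups was possible, and every error given below is technical.

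Cells contain several layers of antioxidant defence. Superoxide dismutases turn superoxide into hydrogen peroxide, which catalase, the glutathione peroxidases and the peroxiredoxins reduce to water. Glutathione, a small peptide made by glutamate-cysteine ligase and glutathione synthetase, and thioredoxin, a small protein, supply the electrons, and both are reduced again by enzymes that use NADPH. Red cells carry oxygen next to hemoglobin iron and hold large amounts of catalase, Prdx2, Gpx1 and Sod1. The transcription factor NRF2, the product of Nfe2l2, is held back by KEAP1 and drives many of these genes through a short DNA motif, the antioxidant response element.

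In whole blood the defence genes were mostly well expressed above background. The scanner software rates a channel of a spot as well above background or not, and a probe has 4 channels over both arrays. All 4 channels were well above background for 38 of the 45 probes (84.4%), which cover 34 genes, while this share was 37.5% over all 41009 probes and 49.2% over the 10767 probes with a gene symbol. In 3 probes (6.67%), those of Gpx2, Gclc and Gstt1, no channel was above background, as in 41.1% of all probes and 31.2% of those with a symbol. The remaining 4 probes, one each of Gss, Srxn1, Gsta2 and Txnrd1, were above background in some channels, and in all 4 of them only Cy5 channels were above it. Among all 8773 probes that were partly above background, this held for 31.8%. The plot of signals by probe shows how close the 4 channels of most members lie.

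**Figure D1:**
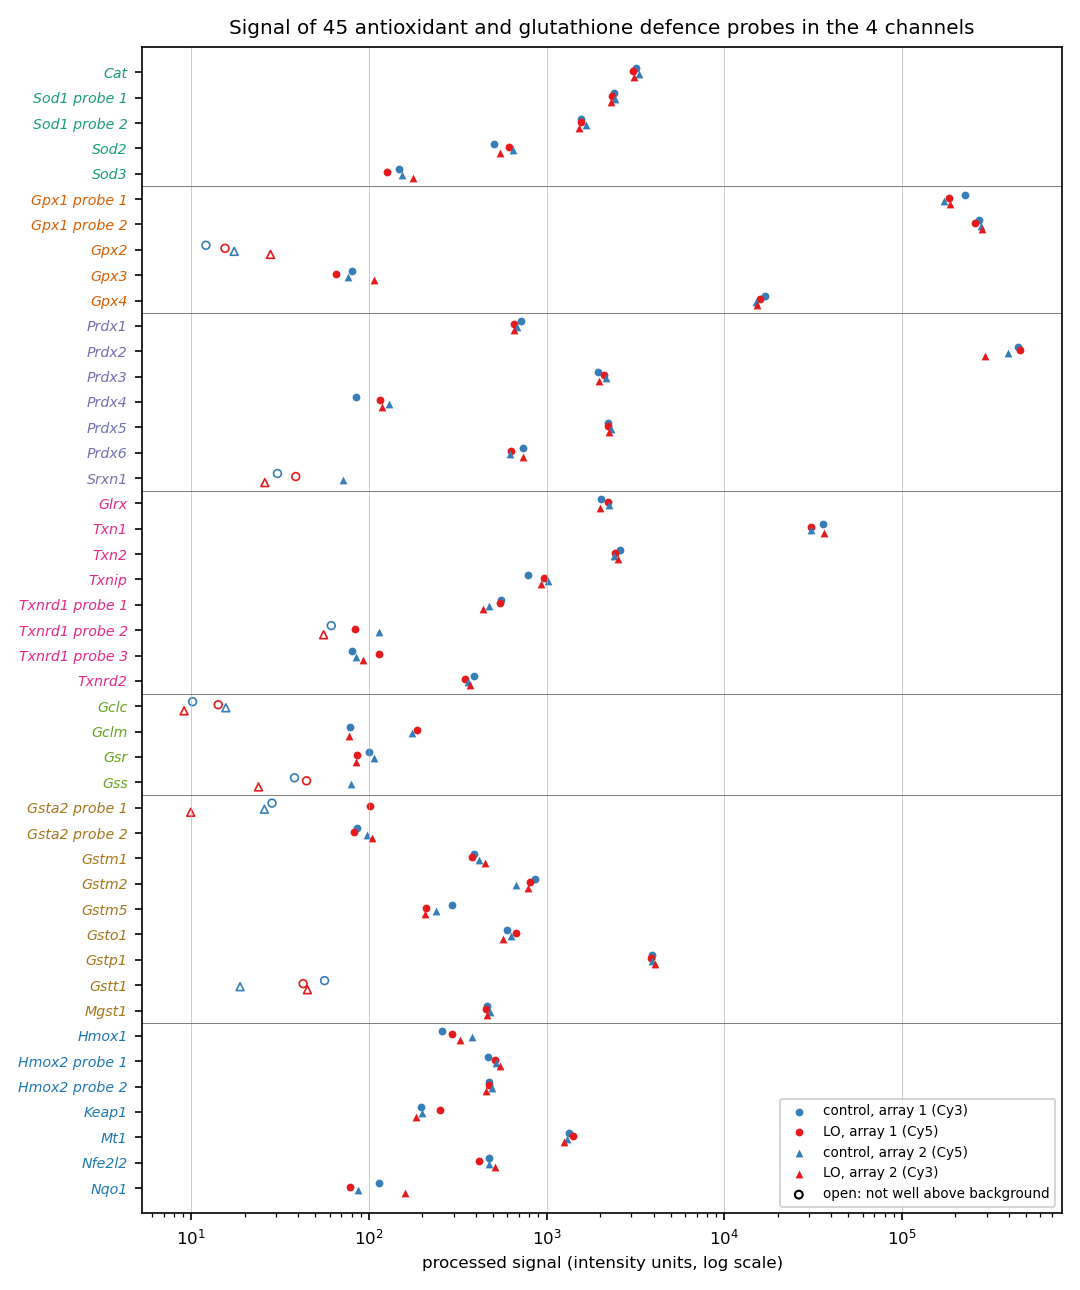
Processed signal (intensity units, log scale) of the 45 probes, grouped by class, for the control pool (blue) and the LO pool (red) on array 1 (circles) and array 2 (triangles); open symbols are channels not well above background. The 4 symbols of a probe nearly coincide for most members, while those of Gclm and Nqo1 separate by dye, and the 3 probes with open symbols throughout are those of Gpx2, Gclc and Gstt1.

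The arrays as a whole set the frame for these values. Across all 41009 probes the log2 LO/control ratio of array 1 was set against that of array 2, and Pearson's r was -0.67 and Spearman's rho -0.66, although the dyes that the methods state were used to turn both ratios the same way. Probes are not independent replicates, and the correlation is a description. The mean of the ratios of both arrays is called the LO part below, and their half-difference, signed as Cy5 over Cy3, the dye part. If both arrays had carried the dyes the same way round, the LO part and the dye part of every probe would change places, so that both are given. Of the markers of blood cells, the red cell genes Hbb and Alas2, the platelet genes Pf4 and Ppbp and the neutrophil genes S100a8 and S100a9 were above background in all 4 channels. The heart muscle gene Myh6 and the liver gene Ttr were above background in none, while 1 of 3 probes of the liver gene Alb was above it in all 4. The heart muscle gene Tnnt2 was above it for the control pool on array 1 (76.7) and the LO pool on array 2 (76.0). The liver gene Apoa1 was above it in both channels of array 1, at 124 for control and 161 for LO, and in neither of array 2. The LO part of the marker probes above background in all 4 channels lay between -0.14 and 0.0012 for red cells, between -0.0090 and 0.042 for platelets and between 0.054 and 0.12 for neutrophils. For the other cell types it was 0.10 for the B cell gene Cd79b, 0.052 and -0.42 for the T cell genes Cd3d and Cd247, and -0.11 and -0.19 for the monocyte genes Cd14 and Csf1r. The error of the LO part of Cd247 was 0.20. The dye part of the 5 red cell probes was 1.11 for Alas2, 0.55 for Hbb, -0.11 for Gypc and -0.12 and -0.27 for Slc4a1, and its share in the dye parts of the members was not tested. In such a bulk measurement, fewer cells of a type and less RNA per cell cannot be told apart.

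No member was selected towards a pool by a Feature Extraction p under 0.01, the threshold of the methods, when it was asked for on both arrays with the same direction of LO/control. The methods considered genes that were up on array 1 and down on the dye-swapped array 2, read here as 1 direction of LO/control. The demand for the p on both arrays was set here and is not stated in the methods. The count was 0 of 45 probes, beside 9 of all 41009 probes (0.0219%). With the p at 0.05, at 0.001 or adjusted by Benjamini-Hochberg it was also 0. On array 1 alone 2 of the 45 probes passed, those of Gclm and Gsta2 (4.44%, beside 5.95% of all probes), and on array 2 alone 3 passed, those of Gclm, Nqo1 and Gss (6.67%, beside 6.29% of all). A second rule asked for an LO part past 1.5-fold in a probe above background in all 4 channels. It was met by 0 of the 38 member probes, beside 19 of 15371 probes (0.124%). The same rule on the dye part was met by 2 of the 38, Gclm and Nqo1 (5.26%), beside 6.49% of all probes.

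The LO parts of the members lay close to 0. Over the 38 probes the median LO part was -0.011 on the log2 scale, with an SD of 0.11 between probes, and over the 15371 probes above background it was -0.0026 with an SD of 0.12. The dye part had a median of 0.017 and an SD of 0.28 among the members, and a median of 0.0086 and an SD of 0.30 among all. The LO part was above 0 in 17 of the 38 probes (44.7%, beside 48.7% of all). The ratio had the same sign on both arrays in 11 of 38 (28.9%, beside 24.4%). The LO pool was the higher on both in 2 (5.26%, beside 11.7%), 1 probe each of Hmox2 and Txnrd1. It was the lower on both in 9 (23.7%, beside 12.7%), namely Cat, both probes of Sod1, Prdx1, Prdx5, Gsr, Gstm5, Mgst1 and 1 probe of Txnrd1. The dye part was larger than the LO part in 27 of the 38 probes (71.1%), and in 75.6% of all. Between the arrays, Pearson's r of the log2 LO/control ratios was -0.71 and Spearman's rho -0.58 over the 38 probes. The scanner software gives an error for each log ratio, from which an error of the LO part was computed by taking the arrays as independent. This error was between 0.14 and 0.26 in the members. The LO part was larger than its error in 4 probes (10.5%, beside 11% of all), those of Gstm5, Gsr, Prdx2 and Txnrd1 (probe A_44_P554454), and larger than 2 errors in 1 probe, that of Gstm5 (2.63%, beside 0.716% of all). An interval of 2 errors on either side of the LO part stayed within 1.5-fold of no difference in 32 of the 38 probes. It reached further in 6, for the genes Gpx3, Gsr, Gstm5, Nqo1, Prdx4 and Txnrd1, with 1.72-fold as the furthest limit. The dye part, which has the same error, was larger than it in 15 probes (39.5%, beside 45.9% of all) and larger than 2 errors in 2, those of Gclm and Nqo1 (5.26%, beside 18% of all). Its interval reached past 1.5-fold in 6 probes, for Gclm, Gpx3, Nqo1, Prdx4, Sod3 and Txnrd1, with 3.15-fold as the furthest limit.

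**Figure D2:**
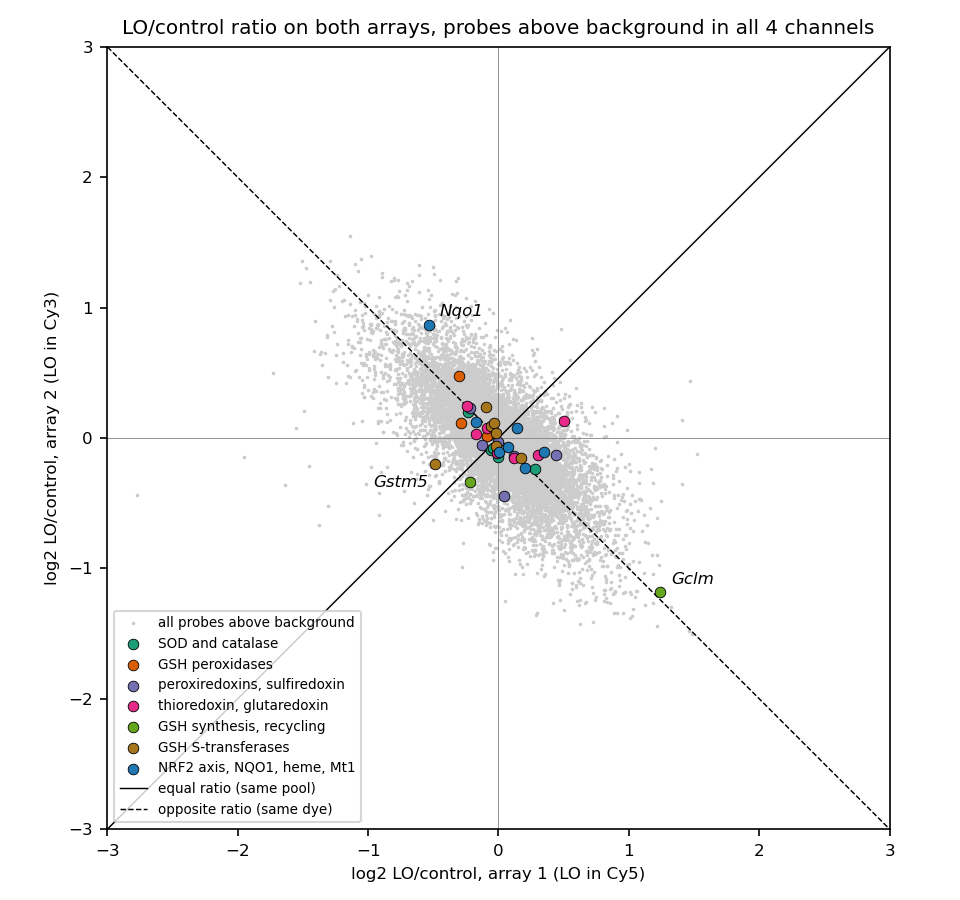
Log2 LO/control ratio on array 1 (x axis) against array 2 (y axis) for the 38 member probes above background in all 4 channels, coloured by class, over all 15371 such probes (grey). Points on the solid line differ alike between the pools on both arrays and points on the dashed line follow the dye; the members spread along the dashed line as the grey points do, with Gclm and Nqo1 furthest out and Gstm5 below 0 on both arrays.

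The superoxide dismutases and catalase were all detected, and their LO parts lay between -0.075 and 0.021. Cat, which splits hydrogen peroxide without a cofactor to recharge, had processed signals of 3193 for the control pool and 3065 for the LO pool on array 1, and of 3323 and 3119 on array 2. Its log2 LO/control ratio was thus -0.059 and -0.091, an LO part of -0.075 ± 0.14 (error of the scanner software, as for all LO parts below). Both probes of Sod1, the cytosolic copper-zinc dismutase, lay in the same place. Probe A_43_P14620 had 2407 and 2335 for control and LO on array 1 and 2433 and 2304 on array 2, with log2 ratios of -0.044 and -0.079. Probe A_44_P461197 had ratios of -0.0017 and -0.15. The LO parts of both probes were -0.061 ± 0.14 and -0.074 ± 0.15. Sod2, the manganese dismutase of mitochondria, was higher in the LO pool on array 1 (log2 ratio 0.28) and lower on array 2 (-0.24), with an LO part of 0.021. Sod3, the dismutase secreted outside the cell, went the other way round with -0.23 and 0.20, and its LO part was -0.016. In both genes the channel labelled with one dye was the higher on both arrays, Cy5 for Sod2 and Cy3 for Sod3.

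The glutathione peroxidases, selenium enzymes that reduce peroxides with glutathione, differed in detection. Gpx1, the cytosolic form, gave signals of 225854 and 185171 for control and LO on array 1 and 172432 and 186958 on array 2 at probe A_42_P805300. Probe A_44_P123315 of the same gene gave 271298 and 257659 on array 1 and 277120 and 282314 on array 2. The control pool was the higher on array 1 and the lower on array 2 at both probes, with log2 ratios of -0.29 and 0.12 at the first and -0.074 and 0.027 at the second. The LO parts were -0.085 ± 0.14 and -0.024 ± 0.14. Gpx4, which reduces lipid peroxides within membranes, had log2 ratios of -0.087 and 0.017. Gpx3, the form secreted into plasma, had ratios of -0.30 and 0.48, an LO part of 0.089 ± 0.26, the widest error among the 38 probes. Gpx2, known from the gut lining, was not well above background in any channel, with signals from 12.1 to 27.9, and no fold is given for it.

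The peroxiredoxins are thiol enzymes that reduce hydrogen peroxide at a reactive cysteine. The LO parts of their 6 probes above background in all 4 channels ran from -0.20 to 0.16. Prdx2, the main peroxiredoxin of red cells, had signals of 449240 for control and 463233 for LO on array 1, and of 396403 and 292008 on array 2. The LO part of -0.20 ± 0.15 came from array 2, where the log2 ratio was -0.44, while that of array 1 was 0.044. The arrays differed by an SD of 0.34, more than the LO part itself. Prdx1, the cytosolic partner of Prdx2, was lower in the LO pool on both arrays, by little, with ratios of -0.12 and -0.056. In Prdx3 and Prdx5, both found in mitochondria, the LO parts were -0.0080 and -0.017. Prdx3 had ratios of 0.12 and -0.13, and Prdx5 had -0.00031 and -0.034, with 2221 and 2220 for control and LO on array 1. Prdx6, which uses glutathione as its reductant, had -0.22 and 0.23. Prdx4, the form of the endoplasmic reticulum, had 0.44 and -0.13 and an LO part of 0.16 ± 0.22. Srxn1, the sulfiredoxin that repairs overoxidised peroxiredoxins and a known NRF2 target, was above background only for the control pool on array 2, where its signal was 71.0. The control signal on array 1 was 30.5, and the LO pool gave 38.7 and 25.9. For Srxn1 the background left a limit under 1, and no fold is given.

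**Figure D3:**
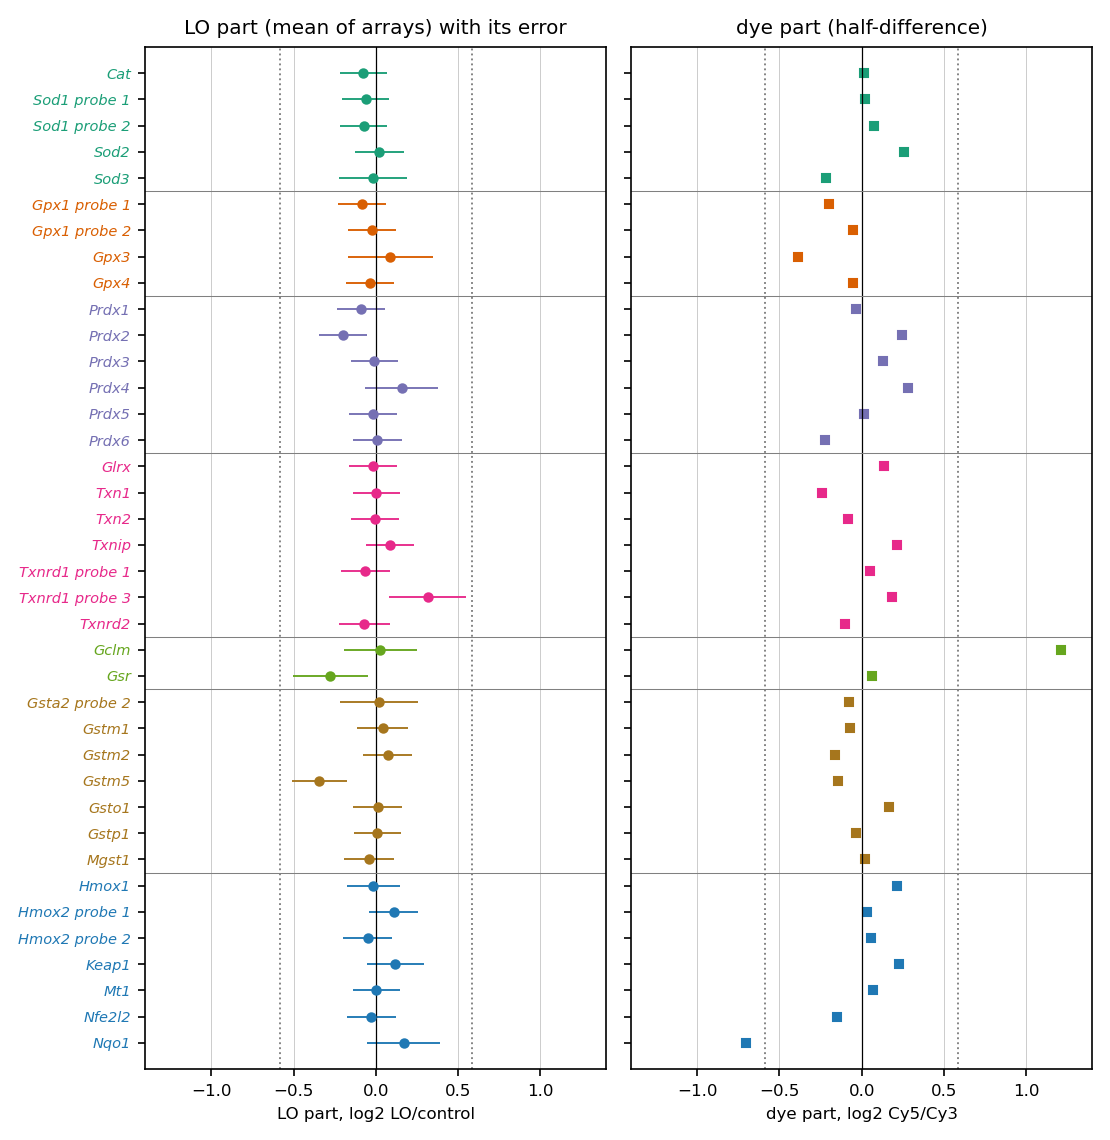
LO part (left, log2 LO/control, mean of both arrays, with the error of the scanner software as bars) and dye part (right, log2 Cy5/Cy3, half-difference of the arrays) of the 38 member probes above background in all 4 channels, by class; dotted lines mark 1.5-fold. No LO part reaches a dotted line, while the dye parts of Gclm and Nqo1 lie beyond them at 1.21 and -0.70.

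The thioredoxin and glutaredoxin genes keep protein thiols reduced. Txn1, cytosolic thioredoxin, had signals of 36075 for control and 30587 for LO on array 1 and of 30672 and 36392 on array 2. The ratios of -0.24 and 0.25 cancelled to an LO part of 0.0043 ± 0.15. Txn2, the mitochondrial form, had ratios of -0.088 and 0.080, and Glrx, which removes glutathione from proteins, had 0.12 and -0.15. Txnip, a protein that binds and restrains thioredoxin, had 0.30 and -0.13, an LO part of 0.087. Txnrd2, the mitochondrial thioredoxin reductase, had -0.17 and 0.032. Its cytosolic counterpart Txnrd1 was measured by 3 probes, which disagreed. Probe A_44_P134070 had signals of 554 and 550 for control and LO on array 1 and 475 and 439 on array 2, with ratios of -0.011 and -0.12 and an LO part of -0.064 ± 0.15. Probe A_44_P554454 had 80.4 and 114 on array 1 and 84.5 and 92.5 on array 2, with ratios of 0.50 and 0.13 and an LO part of 0.32 ± 0.23, the highest among the 38 probes. Its LO pool was the higher on both arrays, but by normexp background correction and loess its LO part was -0.024. Probe A_44_P456738 was above background in the Cy5 channels only, at 83.1 on array 1 (LO pool) and 114 on array 2 (control pool). The spread of 3 probes on both sides of 0 gives no direction for Txnrd1.

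The genes that make and recycle glutathione were the class with the lowest share detected, with 2 of 4 genes above background in all 4 channels. Gclm, the modifier subunit of glutamate-cysteine ligase, which sets the pace of glutathione synthesis, had the largest dye part among the 38 probes. In Cy5 its signals were 185 (LO pool, array 1) and 175 (control pool, array 2). In Cy3 they were 78.4 (control pool, array 1) and 77.0 (LO pool, array 2). The pool labelled with Cy5 was thus 2.37-fold the other on array 1, and the LO/control ratio was 0.440 on array 2. The dye part of Gclm was 1.21, and its LO part was 0.029 ± 0.22, a ratio of 1.02. Gclm was the 1 member probe with a Feature Extraction p under 0.01 on both arrays towards the same dye (2.22% of the members), at 6.40e-05 and 1.44e-04, beside 1082 of all probes (2.64%, of which towards Cy5 1.58%). Among probes above background in all 4 channels it was 1 of 38 (2.63%), beside 218 of 15371 (1.42%). Its catalytic partner Gclc was not above background in any channel, with signals from 9.10 to 15.6. Gss, glutathione synthetase, was above background only for the control pool on array 2, at 79.2, with 38.1 for that pool on array 1 and 44.5 and 23.9 for the LO pool. No fold is given for Gss, as the control pool was not measured on array 1, where its signal was the lower. Gsr, the reductase that returns oxidised glutathione to its reduced form with NADPH, had 99.5 and 85.7 for control and LO on array 1 and 107 and 84.7 on array 2. Its LO pool was the lower on both arrays, with ratios of -0.21 and -0.34 and an LO part of -0.28 ± 0.23, which was -0.088 by normexp and loess.

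The glutathione S-transferases, which attach glutathione to reactive compounds, include the member with the lowest LO part among the 38 probes above background in all 4 channels. Gstm5 had signals of 294 for control and 210 for LO on array 1, and of 237 and 206 on array 2. The LO pool was the lower on both arrays, with log2 ratios of -0.48 and -0.20 and an LO part of -0.34 ± 0.17, a ratio of 0.789. Neither array passed the p threshold for Gstm5, with a Feature Extraction p of 0.0388 and 0.396. By normexp background correction and loess the LO part of Gstm5 was -0.20. Gstm1 and Gstm2 of the same family had LO parts of 0.041 and 0.071, with ratios of -0.032 and 0.11 for Gstm1 and of -0.093 and 0.24 for Gstm2. Gstp1 had signals of 3912 and 3850 for control and LO on array 1 and of 3937 and 4053 on array 2, log2 ratios of -0.023 and 0.042. Gsto1, an omega-class enzyme, had ratios of 0.18 and -0.15, and Mgst1, a transferase of membranes, had -0.019 and -0.062. Gsta2 was measured by 2 probes. At A_44_P109608 all 4 channels were above background, and the ratios were -0.055 and 0.095. At A_43_P13967 only the LO pool on array 1 was above it, with a signal of 102 beside 9.92 for the same pool on array 2, and the background left a limit under 1, so that no fold is given. Gstt1 was above background in no channel, with signals from 18.8 to 56.2. The alpha and mu classes are families of closely similar genes, and the probe sequences were not analysed here, so that their signals may be shared between relatives.

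**Figure D4:**
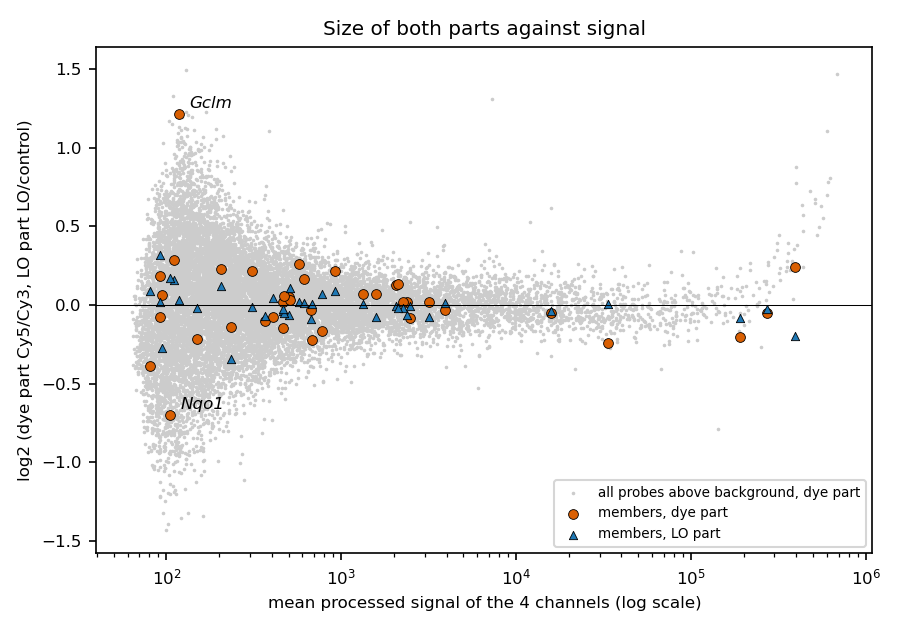
Dye part of the 38 member probes (orange circles) and their LO part (blue triangles) against the geometric mean processed signal of the 4 channels (log scale), over the dye part of all 15371 probes above background in all 4 channels (grey); the y axis is log2. The large dye parts of the members lie at signals under 200, where Gclm and Nqo1 are marked. The dye part is larger in size than the LO part in 27 of the 38 probes.

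The size of both parts went with the signal. In the 8 member probes with a geometric mean signal under 200, the median size of the dye part was 0.25 regardless of sign, beside 0.29 in all 5799 such probes. In the 14 member probes with a mean signal of 1000 and over it was 0.072, beside 0.078 in 3564 probes. The size of the LO part in the same groups was 0.12 and 0.020 among members, and 0.11 and 0.031 among all. The 8 dim probes were those of Gclm, Nqo1, Gpx3, Prdx4, Gsr and Sod3 and 1 each of Gsta2 and Txnrd1. Among the 14 bright probes the LO part was below 0 in 11 and above 0 in 3, from -0.20 to 0.0095, and among the 3564 it was below 0 in 1829.

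The last class holds the NRF2 regulators, the quinone and heme enzymes and metallothionein. All 7 probes of its 6 genes were above background in all 4 channels. The NRF2 target Srxn1, given above with the peroxiredoxins, was not. Nfe2l2 had signals of 471 for control and 418 for LO on array 1 and of 471 and 512 on array 2. Keap1 had 197 and 250 on array 1 and 198 and 184 on array 2. The log2 ratios were -0.17 and 0.12 for Nfe2l2 and 0.35 and -0.11 for Keap1. Neither pool was the higher on both arrays for either gene, and the LO parts were -0.026 ± 0.15 for Nfe2l2 and 0.12 ± 0.17 for Keap1. Nqo1, the quinone reductase that is a standard readout of NRF2, had 114 for control and 78.6 for LO on array 1 and 87.1 and 159 on array 2. The LO pool was the lower on array 1 and the higher on array 2, both times in favour of Cy3. Its log2 ratios were -0.53 and 0.87, its dye part was -0.70, and its LO part was 0.17 ± 0.22. Mt1, the metal-binding metallothionein, had ratios of 0.075 and -0.067. Hmox2, the constant heme oxygenase, had 0.14 and 0.079 at probe A_43_P12438 and 0.0076 and -0.10 at A_44_P500907.

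Hmox1, the stress-induced heme oxygenase, was printed on 10 spots of each array and gave a view of the error within a probe. After 4 spots with a quality mark were left out, the 6 others had signals from 171 to 295 for control and from 268 to 334 for LO on array 1. On array 2 the control pool gave from 356 to 407 and the LO pool from 276 to 372. On array 1 the LO pool was the higher in 5 of 6 spots, and on array 2 it was the lower in 6 of 6. The mean log2 ratio was 0.20 on array 1 and -0.23 on array 2. The LO part had a mean of -0.015 and an SD of 0.21 between spots. One spot, with the control signal of 171, had a log2 ratio of 0.96 on array 1 and an LO part of 0.40. Without it the mean LO part was -0.098. The LO part was below 0 in the other 5 spots. The median SD between spots over the 105 repeated probes above background was 0.053.

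**Figure D5:**
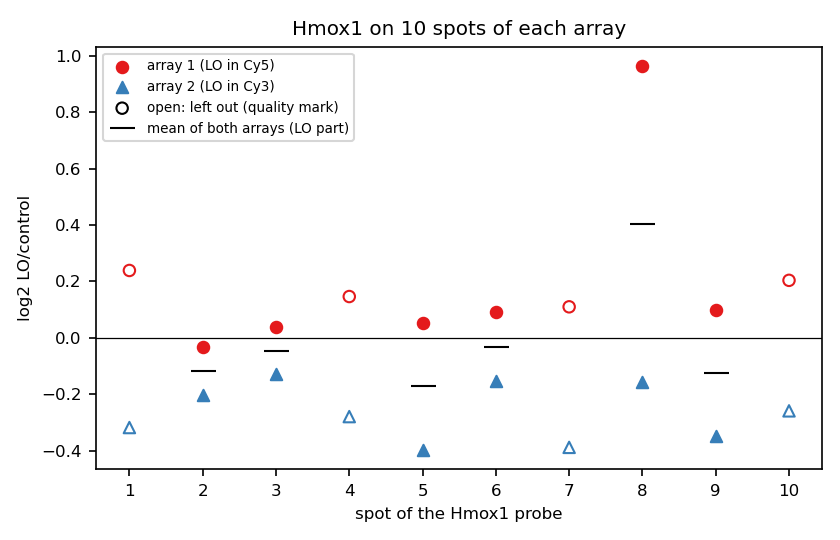
Log2 LO/control ratio of the 10 spots of the Hmox1 probe on array 1 (red circles) and array 2 (blue triangles), with the mean of both arrays for the 6 spots kept (black bars); open symbols are spots left out for a quality mark. The spots of array 2 all lie below 0, those of array 1 lie near or above 0, and spot 8 stands apart at 0.96 on array 1.

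The antioxidant response element was looked for in the members' promoters, since it is the sequence that ties many of them together. The letters TGACNNNGC, or GCNNNGTCA for the other strand, were searched in RefSeq promoter windows of build GRCr8, which run from 250 bases before to 50 bases after the start. A window was found for 34 of the 40 genes. The motif stood in 13 of their 38 windows (34.2%), each of a different gene, and in 12.1% of all 33469 windows. Matches before the start in Gpx2, Hmox2 and Sod2, and a second one in Gstm5, are not shown. In Gsta2, Nfe2l2, Prdx4 and Prdx5 the match reaches the start or lies after it. Matches before the start are shown for 6 members whose values are given above, with the motif in capitals, 5′ to 3′ on the strand of the gene. The stretches lie at chr2:213031943-213031991 (plus strand) for Gclm, chr7:22755954-22756002 (minus) for Txnrd1, chr5:135383751-135383799 (plus) for Prdx1, chr1:210769738-210769786 (minus) for Gstp1, chr2:198219696-198219744 (plus) for Gstm5 and chr19:10833048-10833096 (minus) for Mt1.
Gclm: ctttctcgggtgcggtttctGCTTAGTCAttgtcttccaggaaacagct
Txnrd1: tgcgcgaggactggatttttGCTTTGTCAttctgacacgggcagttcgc
Prdx1: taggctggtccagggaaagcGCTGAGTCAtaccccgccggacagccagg
Gstp1: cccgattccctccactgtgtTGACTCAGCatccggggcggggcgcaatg
Gstm5: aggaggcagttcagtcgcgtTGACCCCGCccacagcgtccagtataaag
Mt1: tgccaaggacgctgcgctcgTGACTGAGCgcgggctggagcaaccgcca
In Prdx1 and Gstp1 the match overlaps TGACTCA on one strand, the letters of the AP-1 motif. Members with the motif had a median LO part of 0.0068 over 14 probes, from -0.34 to 0.32, and members with a window without it had -0.016 over 19 probes, from -0.20 to 0.17. The median dye part was 0.041 with the motif, from -0.15 to 1.21, and -0.051 without it, from -0.70 to 0.24. Both ends of the first range of LO parts are genes shown here, Gstm5 and Txnrd1. A match of these letters is a description of the window and does not show that NRF2 binds there. The coordinates are those of GRCr8 and were not set beside the array, whose design is tied to the older build rn4.

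Other genes of glutathione and NRF2 biology were measured beside the members. Of 60 such genes, 34 had a probe, and 29 of their 45 probes were above background in all 4 channels, a state found in 37.5% of all probes. By the Feature Extraction p, 0 of the 45 were selected towards a pool (0.0219% of all probes) and 2 towards a dye (2.64% of all). An LO part past 1.5-fold was found in 0 of the 29 (0.124% of all). Their median LO part was -0.036, with 9 above and 20 below 0. The largest LO parts were those of Ggt5 and Abcc1, at -0.37 ± 0.25 and 0.35 ± 0.18, followed by Blvra at -0.16 ± 0.15. The log2 ratios on arrays 1 and 2 were -0.86 and 0.12 for Ggt5, 0.67 and 0.034 for Abcc1, and -0.083 and -0.24 for Blvra. Their dye parts were -0.49, 0.32 and 0.077. Ggt5 is a transpeptidase that cleaves glutathione conjugates, Abcc1 exports them, and Blvra reduces biliverdin, the product of heme oxygenase. Ftl1, the ferritin light chain, was picked out after its values were seen, as 2 of its 4 probes passed the p threshold towards Cy5 on both arrays. Probe A_44_P149188 gave 547519 for control and 907050 for LO on array 1 and 760213 and 410188 on array 2, a dye part of 0.81, while probe A_44_P114869 of the same gene had a dye part of 0.033. The LO parts of these probes were -0.081 and -0.061.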

How the data were processed

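Whole blood RNA, pooled by group, was measured on 2 two-colour Agilent arrays. The authors used Agilent Feature Extraction 11.0.1.1, and the deposited files hold signal intensities after background subtraction and LOWESS dye normalization, the log10 ratio of Cy5 over Cy3 with its error, and a p-value from the software's error model, unadjusted. A deposited value table held log10 ratios that matched those recomputed here from the processed signals within 0.0001. The software's own log ratio, which was used here, differed from that table by more than 0.0001 in 6392 of 43379 features on array 1. On array 2 it differed in 5726. Log ratios were turned to LO over control and put on the log2 scale. The 338 features with a non-uniformity or outlier mark on either array were left out, no feature was saturated, spots of a probe were averaged and their p taken as the median. A probe counted as above background in a channel when all its spots did. A symbol was found for 10767 of 41009 probes through a GRCr8 table. Where 1 pool was dim on both arrays, a limit was computed after Aquantile normalization, with the dim signal raised to the lowest signal well above background. The list of member symbols, the other lists and the motif were chosen with earlier results of these data known. The members' probes were then taken by symbol and not by a measured value. Every member with a probe is named, with ratios for those above background in all 4 channels, and of the other pathway genes the 3 largest LO parts. The call rule was tested on simulated data with differences of 2 on the log2 scale, larger than any LO part of the members. The rule was not tested at the size of the members' LO parts. The simulated noise and p both came from the software's errors, so that the simulation cannot check those errors. The alternatives were normexp (offset 50, on median signals) with loess, median centring of background-subtracted signals, the value table, marked features kept, other thresholds and filters, and each array alone. Python 3.11.15, pandas 2.3.3, scipy 1.17.1, R 4.3.3 and limma 3.58.1 were used. The number of arrays limits the precision.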

Additional observations from a re-analysis of the deposited data

How the results depend on the processing

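The count of members selected towards a pool was 0 at each p threshold tried and after Benjamini-Hochberg adjustment. It was also 0 with all 4 channels above background required and with marked features kept. Normexp with loess, median centring and the value table were not put through this count. The count towards a dye was 0 after Benjamini-Hochberg adjustment and 1 in the other settings counted. Members past the fold limit in the LO part numbered 1 at the lower limit tried (Gstm5), 1 without a filter on dim probes (Gss), and between 1 and 2 with an array left out, Gclm on array 1 and Gclm and Nqo1 on array 2. Past the limit in the dye part were 1 at 2-fold, 7 without the filter, 0 by normexp with loess and 10 by median centring of background-subtracted signals. Of all 15371 probes above background, 24 were past this limit by normexp with loess and 3018 by median centring. By the software's own log ratio it was 997. The counts of the members thus moved the same way as those of all probes. Median centring moved the median dye part of all probes above background to 0.33 and their median LO part to -0.074, and the members' medians to 0.41 and -0.085. The median LO part of the members lay between -0.059 and -0.027 with an array left out, and was 9.69e-05 as a median over genes. By normexp with loess the dye part of Gclm was 0.34, and the LO parts of the 38 probes lay between -0.20 and 0.12. The direction of the LO part turned in 9 of 38 probes by normexp and in 9 by median centring, with no LO part past 1.5-fold in either. The cause was not tested. The alternative for Hmox1 without 1 spot was chosen after seeing the data. No paired analysis was possible because each group is 1 pool. Dim signals limit what can be said of Gpx2, Gclc, Gstt1, Gss and Srxn1.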
